A study of Homo sapiens with 6 samples.

Results

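In EFTUD2-overexpressing Hep G2 cells, 11 genes that the control cells expressed at a moderate to high level were lower in all 3 libraries and stood well clear of all 3 controls. They were chosen by a fixed limit on the measured values: a control mean no lower than 5 FPKM, and an EFTUD2 maximum below the lowest control divided by 1.5. FPKM are the fragments counted for a transcript, scaled for its length and for library depth. The limit was met by 11 of the 8630 known genes with that control level, which is 0.127%, after 2 genes were left out by name. The table holds 18762 genes with an Entrez number in 23524 rows. Because the genes were selected on this contrast, their levels and ratios below are a description and carry no p-value.

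Hep G2 is a human liver tumor line. The control cells carried the empty vector and the other cells carried a vector for EFTUD2, the GTPase of the U5 particle of the spliceosome. Both were made as stable cells by selection in puromycin, and RNA was sequenced from 3 libraries of each. The labels do not say whether the 3 libraries of a group came from separate cultures, so the spread between them may be technical. They also do not say whether each group was 1 clone or a pool of selected cells. In these bulk libraries, fewer cells of one kind and less RNA per cell cannot be told apart.

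The 11 genes belong to no single pathway. IL11 (interleukin 11) is a secreted cytokine that signals through the gp130 receptor, as IL-6 does. KRT19 and NES encode keratin 19 and nestin, which are intermediate filament proteins, and TUBA1A encodes an alpha-tubulin, the building block of microtubules. Keratin 19 is known in liver from bile duct and progenitor cells, and nestin from neural and other progenitors. SCGN (secretagogin) is a calcium sensor known from neuroendocrine cells, AKAP12 is a scaffold that holds protein kinases A and C near the membrane, ESAM is an adhesion molecule of cell junctions, ODAM is a secreted protein of tooth epithelium, and BEX1 is an adaptor known from neurotrophin signalling. The remaining members, LOC105379443 and LOC100996643, are annotated as transcribed pseudogenes.

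Promoter windows of 300 bases, 250 before and 50 after the start site, came from RefSeq on GRCh38.p14 and matched 7 of the 11 genes, with 9 windows since AKAP12 has 3 start sites. No window was used for KRT19, ESAM, LOC105379443 and LOC100996643. Of 19 short motifs searched on both strands, 2 are shown because their share of the 9 windows stood farthest above that of all windows, a choice made after the matches were seen. The first is TGANTCA, a loose pattern for the site of AP-1 factors, whose usual middle letter is C or G. It is in capitals in the windows of SCGN (chr6:25651965-25652264, plus strand), IL11 (chr19:55370414-55370713, minus strand) and ODAM (chr4:70195475-70195774, plus strand).
SCGN: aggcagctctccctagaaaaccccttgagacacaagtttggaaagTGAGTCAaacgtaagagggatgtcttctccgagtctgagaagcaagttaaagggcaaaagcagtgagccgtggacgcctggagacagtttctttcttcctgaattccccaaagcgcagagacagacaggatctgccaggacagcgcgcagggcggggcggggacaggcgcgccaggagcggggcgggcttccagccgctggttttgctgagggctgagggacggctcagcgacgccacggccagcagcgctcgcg
IL11: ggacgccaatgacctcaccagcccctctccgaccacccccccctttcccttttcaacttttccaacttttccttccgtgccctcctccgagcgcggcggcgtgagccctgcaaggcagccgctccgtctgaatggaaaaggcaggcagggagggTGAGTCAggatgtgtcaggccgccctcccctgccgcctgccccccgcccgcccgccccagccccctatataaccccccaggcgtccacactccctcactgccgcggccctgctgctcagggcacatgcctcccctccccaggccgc
ODAM: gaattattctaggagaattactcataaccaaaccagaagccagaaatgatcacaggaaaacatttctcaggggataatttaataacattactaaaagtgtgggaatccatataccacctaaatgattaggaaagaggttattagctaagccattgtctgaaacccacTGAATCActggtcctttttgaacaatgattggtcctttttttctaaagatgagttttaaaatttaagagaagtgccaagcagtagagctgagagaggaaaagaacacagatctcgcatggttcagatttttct
The match began 205 bases before the start site in SCGN, 96 before it in IL11 and 83 before it in ODAM. SCGN and IL11 held the same letters, TGAGTCA. ODAM held TGAATCA, which only the N of the loose pattern admits. Matches to the loose pattern were in 33.3% of the 9 windows, against 7.71% of all 35116 windows and 4.81% of the 10499 windows of genes at that control level. ODAM differed from the others in base composition, with 35.7% G and C and 1 CpG, where the median over the 9 windows was 60.3% and 16.

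The other motif is CACGTG, the E-box letters that USF and MYC factors read, in capitals in the window of BEX1 (chrX:103064122-103064421, minus strand) and in the AKAP12 window of the start site farthest downstream (chr6:151341456-151341755, plus strand).
BEX1: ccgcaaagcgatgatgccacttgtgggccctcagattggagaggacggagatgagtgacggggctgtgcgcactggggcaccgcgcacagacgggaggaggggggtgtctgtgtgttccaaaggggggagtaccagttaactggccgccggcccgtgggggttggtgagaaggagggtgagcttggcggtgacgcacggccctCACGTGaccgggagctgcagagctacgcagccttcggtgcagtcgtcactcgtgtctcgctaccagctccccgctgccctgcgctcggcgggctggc
AKAP12: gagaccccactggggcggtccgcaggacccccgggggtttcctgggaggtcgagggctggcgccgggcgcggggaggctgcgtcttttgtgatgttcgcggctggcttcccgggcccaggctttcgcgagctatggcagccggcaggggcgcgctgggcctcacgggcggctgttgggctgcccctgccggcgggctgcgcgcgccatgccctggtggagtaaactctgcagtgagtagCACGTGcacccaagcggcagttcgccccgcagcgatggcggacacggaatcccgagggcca
All 3 AKAP12 windows held it, beginning 93, 17 and 11 bases before their start sites, and in the first of them it overlapped the letters CCACG, another motif searched. That makes 4 of the 9 windows (44.4%), against 7.26% of all windows and 9.94% of those of genes at the same control level, but 3 of the 4 belong to 1 gene. The other common motifs were nearer to their background. CCAAT was in 5 windows (55.6%), against 34.6% of all windows and 35.1% of those of genes at the same control level. The GC box GGGCGG was in 6 (66.7%), against 45.0% and 68.4%, and CCACG was in 4 (44.4%), against 38.1% and 49.4%. TATAAA was in 0 of 9, against 11.5% and 5.79%. A match describes the letters in the window and does not show that a factor binds there.

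Across all 17222 genes whose mean reached 0.1 FPKM, limma with Benjamini-Hochberg adjustment called 0 genes lower (0%) and 0 higher (0%), and the smallest adjusted p was 0.126. Without adjustment, 1361 genes (7.9%) were lower and 757 (4.4%) higher at a p under 0.05. That split turned under scaling by the median of ratios, to 848 lower and 1122 higher. The groups did not overlap for 3337 genes that were lower (19.4%) and for 1364 that were higher (7.92%), so a lack of overlap alone was common in this table, and the factor of 1.5 and the control level are what set the 11 apart. The same limits turned around found 17 genes higher in every EFTUD2 library, 0.197% of the 8630.

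EFTUD2 itself stood at 41.1, 54.4 and 46.3 FPKM in control replicates 1, 2 and 3 and at 107, 103 and 109 FPKM after overexpression, the direction that the labels give. The FPKM of a library summed to between 404342 and 434542; read depth is unknown, since no counts were used. EFTUD2 replicate 3 stood apart: the SD over genes of its log2 difference from the other EFTUD2 libraries was 0.51 and 0.60, where those 2 differed from each other by 0.23 and the controls among themselves by 0.21 to 0.36. All 9 hepatocyte markers were at 1 FPKM or more in the controls, and their sum ran from 6862 to 9867 FPKM in the controls and from 9722 to 14594 with EFTUD2.

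IL11, the cytokine of the set, was at 9.92, 7.99 and 8.11 FPKM in controls against 3.02, 1.91 and 3.49 FPKM with EFTUD2. Even the lowest control was 2.29 times the highest EFTUD2 library. The mean was 8.67 ± 1.08 FPKM in the controls and 2.81 ± 0.81 with EFTUD2 (SD, n = 3 each), a ratio of 0.324. The difference in log2(FPKM + 1), on which every log2 value here is given, was -1.36 with a limma standard error of 0.19.

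ODAM, the other secreted protein, was at 72.8, 77.5 and 88.8 FPKM in controls against 44.9, 33.0 and 43.8 FPKM with EFTUD2. It had the mildest ratio of the 11, 0.509, and was the only member whose EFTUD2 mean stayed above 0.5 of its control mean. Its lowest control was 1.62 times the highest EFTUD2 library.

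Among the proteins of calcium and kinase signalling, SCGN showed the clearest separation of any protein-coding member. Its controls were at 18.97, 17.1 and 14.8 FPKM, and its EFTUD2 libraries lay close together at 5.13, 5.12 and 3.78 FPKM. The lowest control was 2.89 times the highest EFTUD2 library, the ratio of means was 0.276, and the log2 difference was -1.67 (SE 0.16). AKAP12, the kinase scaffold, stood at 34.9, 30.1 and 26.1 FPKM in the controls. With EFTUD2 it was at 16.2, 11.6 and 8.91 FPKM. The groups were 1.62-fold apart at their nearest values, and the EFTUD2 libraries spread more widely than those of SCGN.

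KRT19 had the highest level of the 11 by far, per length. It was at 314, 358 and 373 FPKM in controls against 163, 153 and 103 FPKM in the EFTUD2 libraries. The control mean was 348 ± 30.4 FPKM and the EFTUD2 mean 140 ± 32.5 FPKM (SD, n = 3 each), with 1.93-fold between the nearest values. The other filament gene, NES, lay just inside the limit. Its controls were at 20.1, 14.5 and 14.5 FPKM and its EFTUD2 libraries at 8.86, 5.78 and 9.43 FPKM, with control replicate 1 above the other controls and 1.53-fold between the nearest values.

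TUBA1A, the tubulin, was at 23.3, 17.9 and 27.9 FPKM in controls against 10.4, 7.43 and 3.70 FPKM with EFTUD2. EFTUD2 replicate 3 was the lowest, at 0.161 of the control mean where the other EFTUD2 libraries were at 0.452 and 0.323. The gene gave one of the larger log2 differences, -1.63, and the widest standard error of the set, 0.33. Without EFTUD2 replicate 3 the log2 difference was -1.27.

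ESAM, the junction protein, had the tightest controls for its level, 14.5, 15.9 and 15.7 FPKM. Its EFTUD2 libraries ran from 8.20 through 5.97 to 3.75 FPKM. Here too EFTUD2 replicate 3 was the lowest, and the nearest values were 1.76-fold apart. BEX1 was the opposite case. Its EFTUD2 libraries were alike, at 9.99, 8.36 and 8.39 FPKM, while its controls were at 30.8, 16.2 and 15.4 FPKM. Control replicate 1 raised the BEX1 control mean, and without it the log2 difference was -0.76 in place of -1.07. The nearest values were 1.54-fold apart.

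The transcribed pseudogenes were the lowest in level and among the clearest in separation. LOC105379443 was at 6.26, 4.14 and 5.27 FPKM in controls against 1.27, 1.27 and 1.03 FPKM with EFTUD2, a ratio of means of 0.228 and 3.26-fold between the nearest values, the largest gap of the set. LOC100996643 was at 7.58, 6.46 and 5.98 FPKM in controls against 2.72, 2.53 and 2.63 FPKM with EFTUD2, a ratio of 0.394 and 2.20-fold between the nearest values. In neither gene did any library come near the other group. They lie on chromosome 9, 1.76 Mb apart in RefSeq GRCh38.p14 (chr9:65143058-65185164 and chr9:63333338-63378847). LOC105379443 overlaps LOC102724507, and LOC100996643 overlaps AQP7P1 and BMS1P10, so reads may be shared between such copies and the split is uncertain.

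**Figure D1:**
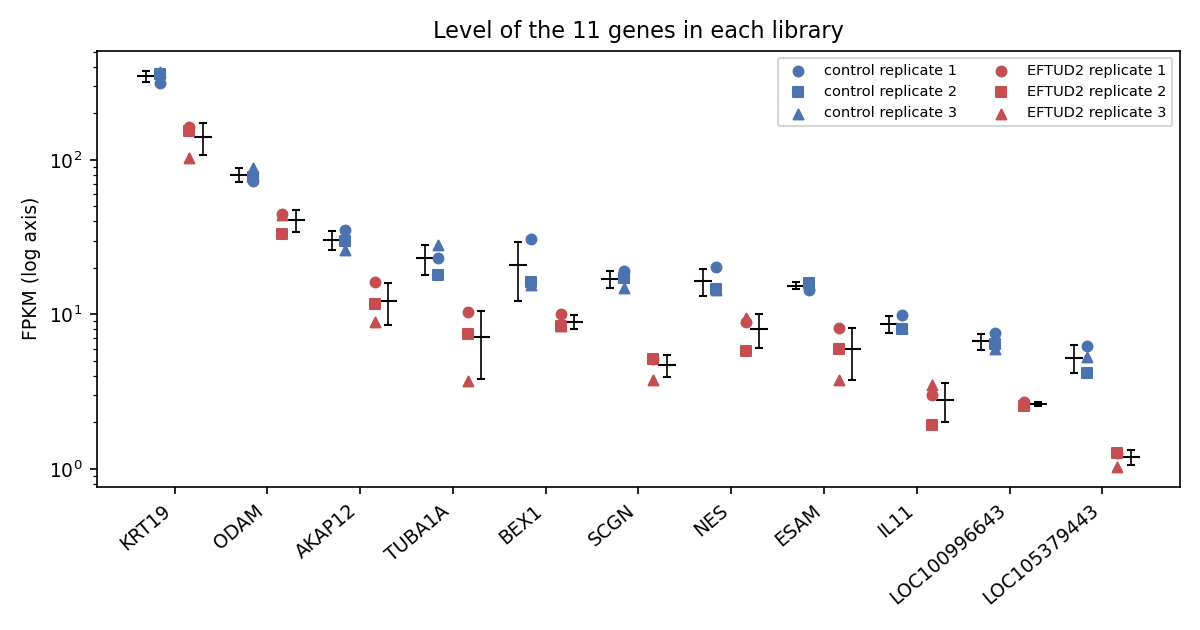
FPKM (log axis) of each of the 11 genes in the 3 control libraries (blue) and the 3 EFTUD2 libraries (red), with the mean and SD in black beside each group. From KRT19, with a control mean of 348 FPKM, to LOC105379443, with 5.22 FPKM, no red point reaches the blue points of its gene.

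Over the 11 genes, the median ratio of the EFTUD2 mean to the control mean was 0.394, from 0.228 to 0.509, where the median of all 8630 genes was 0.902. The median log2 difference was -1.28, against -0.15 over those genes and -0.07 over all genes tested. In 10 of the 11 the EFTUD2 mean was under 0.5 of the control mean, and in 4 (LOC105379443, SCGN, IL11 and LOC100996643) the lowest control was at least 2 times the highest EFTUD2 library. Their median control mean was 17.0 FPKM, close to the 17.7 FPKM of the 8630.

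**Figure D2:**
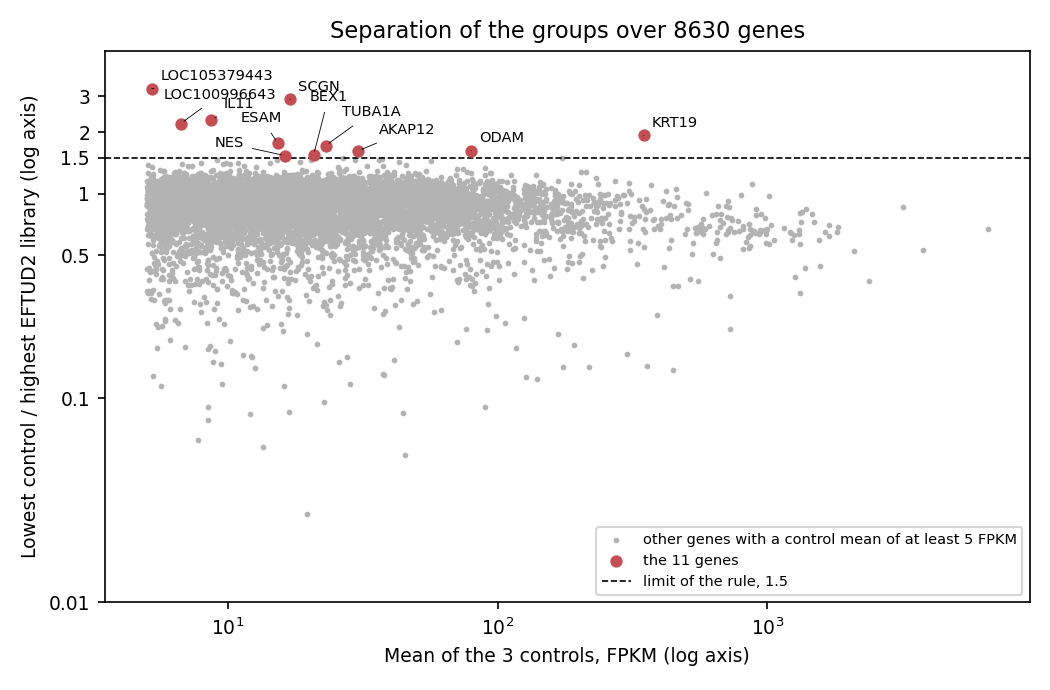
For each of 8630 genes, the mean of the 3 controls in FPKM (x, log axis) and the lowest control divided by the highest EFTUD2 library (y, log axis). The 11 genes (red) lie above the dashed limit of 1.5 by the rule that chose them, from NES at 1.53 to LOC105379443 at 3.26, and spread along the whole range of levels up to KRT19.

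Just outside the limit, the nearest gene was SPATS2L, at 190.2, 164 and 165 FPKM in the controls and 109.6, 93.3 and 98.2 FPKM with EFTUD2, just under the limit of 1.5. AREG, a ligand of the EGF receptor, came next at 22.8, 30.4 and 26.8 FPKM against 14.5, 9.31 and 15.3 FPKM, or 1.49-fold. NDUFA6, a subunit of respiratory complex I, followed at 37.4, 40.2 and 34.0 FPKM against 23.0, 22.2 and 21.3 FPKM, or 1.48-fold. Inside it the nearest were NES (1.53), BEX1 (1.54) and AKAP12 (1.62). AREG had a lower ratio of means, 0.489, than ODAM, which was inside, so the limit on the nearest values and the mean do not order the genes alike.

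The EFTUD2 libraries were not equally low. Relative to the control mean, the median of the 11 genes was 0.468 in replicate 1, 0.379 in replicate 2 and 0.294 in replicate 3, where the median of the 8630 genes was 0.936, 0.950 and 0.804. Replicate 3 was the lowest EFTUD2 library for 6 members, replicate 2 for 5 and replicate 1 for 0. Over the 8630 genes the shares were 64.9%, 21.6% and 13.5%. KRT19, TUBA1A, ESAM and AKAP12 shared the order in which replicate 3 was clearly lowest, while IL11 and NES were highest there. Among the controls, replicate 1 was the highest for 7 members, replicate 3 for 3 and replicate 2 for 1. Without EFTUD2 replicate 3 the median log2 difference of the 11 was -1.08, and without control replicate 1 it was -1.27.

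**Figure D3:**
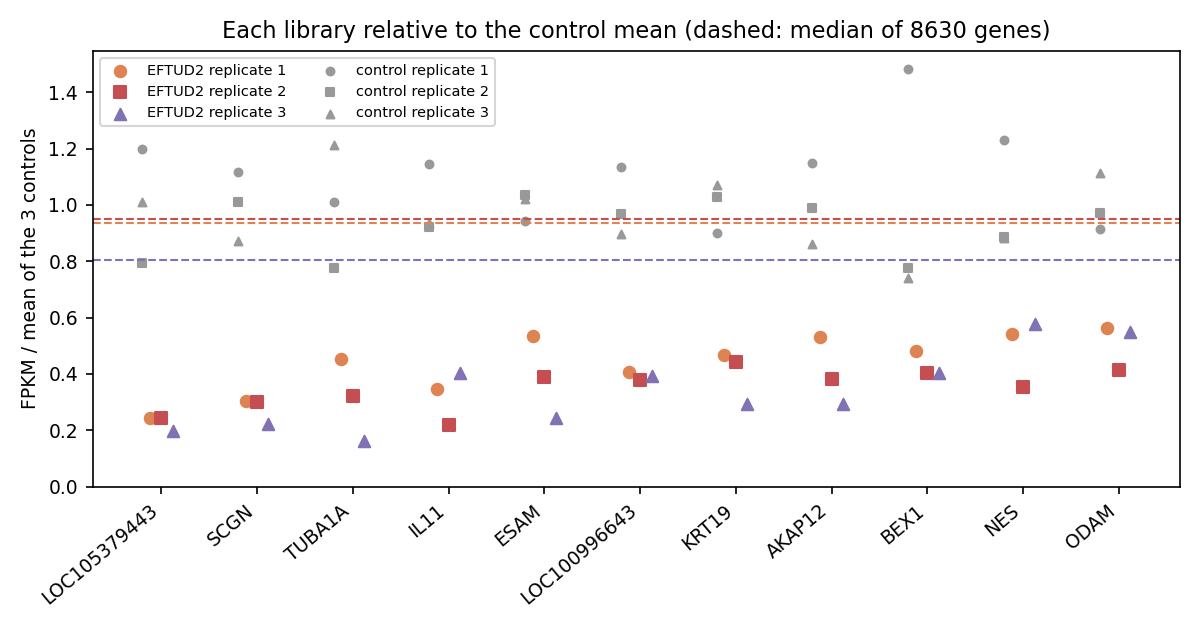
FPKM of each library divided by the mean of the 3 controls (y, from 0) for the 11 genes, with the EFTUD2 libraries in color and the controls in grey. Dashed lines are the medians of 8630 genes in the EFTUD2 library of the same color, at 0.936, 0.950 and 0.804, and every EFTUD2 point of the 11 genes lies below all of them.

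By annotation, 9 of the 11 are protein coding, and the set lies on 9 chromosomes with 2 members each on chromosomes 6 and 9. Their genomic spans had a median of 8.852 kb, from 1521 bases for BEX1 to 118593 bases for AKAP12, against 29.023 kb for the 8630 genes. Overlapping annotation limits a few of them: ESAM-AS1 runs over ESAM, SCGN holds PRELID1P2 and LOC124901284, and AKAP12 holds several small RNA genes. Whether the authors counted reads by strand is not given in the sources used here, so reads of ESAM and ESAM-AS1 cannot be told apart.

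Of 38 gene lists for pathways, complexes and functions, 36 held none of the 11. Only 0.127% of the 8630 genes met the limit, so most lists of this size would hold none. The lists are also incomplete: NES is not in the cytoskeleton list, and IL11 is not in that of IL-6, JAK and STAT3. The list of mitochondrially encoded genes had 0 tested genes. The list of cytoskeleton and tubulin genes held KRT19 and TUBA1A. Of its 45 tested genes, 30 had a lower and 15 a higher EFTUD2 mean, and the median log2 difference was -0.11. Of the 45, 9 were lower and 5 higher without overlap, beside 19.4% and 7.92% of all genes tested. The list of small nucleolar RNA hosts and noncoding RNAs held the pseudogenes, with 148 of 260 lower and 112 higher and a median of -0.01. In the list of IL-6, JAK and STAT3 genes, which held no member, 28 of 36 had a higher mean and 8 a lower one, and a median of 0.45. Without overlap 15 were higher and 5 lower, beside 7.92% and 19.4% of all genes tested. None of these genes passed the adjusted test.

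The relatives of the members by gene symbol, whose control mean reached 1 FPKM, were mostly not as low. TUBA1A is nearly identical in coding sequence to TUBA1B and TUBA1C, so its reads may be shared with theirs. TUBA1B was at 438, 616 and 570.2 FPKM in controls against 541, 642 and 269 FPKM with EFTUD2, low in replicate 3 alone. TUBA1C was at 303, 431 and 371 FPKM against 315, 363 and 197 FPKM, with the same low replicate. TUBA4A went the other way, at 5.15, 4.63 and 4.12 FPKM against 6.67, 8.36 and 10.1 FPKM, with no overlap.

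Of 7 further keratins, 6 had a lower mean and 1 a higher one. KRT18, a type I keratin of hepatocytes, was at 468, 462 and 448 FPKM in controls against 416, 425 and 289 FPKM with EFTUD2. KRT8 was at 727, 869.7 and 805 FPKM against 691, 741 and 456 FPKM. Both had milder ratios than KRT19, at 0.819 and 0.786. KRT15, whose ratio of 0.399 was nearest to the 0.401 of KRT19, was at only 0.98, 0.95 and 1.13 FPKM in controls against 0.46, 0.32 and 0.44 FPKM with EFTUD2. KRT17 stood at 1.12, 1.80 and 1.32 FPKM against 66.9, 135 and 9.29 FPKM. So 1 family held genes lower and higher in every EFTUD2 library. Among the other intermediate filament genes, SYNM, LMNA, LMNB1 and LMNB2 had ratios of 0.781 to 0.922, where NES was at 0.491. Filament genes under a control mean of 1 FPKM went both ways. VIM was at 0.06, 0.08 and 0.12 FPKM in controls against 23.2, 59.6 and 2.87 FPKM with EFTUD2. INA was at 0.26, 0.26 and 0.29 FPKM against 0.10, 0.09 and 0.02 FPKM.

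For IL11, 7 other ligands and receptors of the IL-6 family had a control mean of 1 FPKM or more, 4 with a lower and 3 with a higher EFTUD2 mean. CLCF1, another ligand, was the most like it, at 3.59, 2.96 and 2.65 FPKM against 1.64, 2.13 and 1.05 FPKM, a ratio of 0.524. LIF was at 5.37, 5.18 and 4.58 FPKM against 3.97, 3.65 and 4.33 FPKM. Neither gene overlapped between groups. IL6R, the IL-6 receptor, was also lower without overlap, with a ratio of 0.732. Of the 7, 3 were lower and 1 higher without overlap, beside 19.4% and 7.92% of all genes tested, whose floor was lower. OSMR, the oncostatin M receptor, was higher at 48.5, 47.9 and 50.4 FPKM against 34.5, 29.5 and 38.0 FPKM in the controls. IL6ST, which encodes gp130, had overlapping groups at 43.8, 46.4 and 45.1 FPKM in the controls and 53.2, 52.2 and 41.0 FPKM with EFTUD2. IL6 itself was below that control level, at 0.01, 0 and 0 FPKM. It was higher in every EFTUD2 library, at 1.69, 2.97 and 0.15 FPKM. IL11RA, the receptor of IL11, was also below that level and overlapped, at 0.95, 0.43 and 0.63 FPKM against 0.64, 0.56 and 1.41 FPKM.

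Of 11 other A-kinase anchoring protein genes, 9 had a lower mean than the controls. Without overlap 5 were lower, beside 19.4% of all genes tested, which had a lower floor of 0.1 FPKM. The lowest ratio among the 11 was 0.726 (AKAP1), where AKAP12 was at 0.403. The 5 relatives of BEX1 in the BEX and TCEAL group had ratios of 0.899 to 1.15, with 0 that did not overlap in either direction, where BEX1 was at 0.429. CALB2, the one relative of SCGN whose control mean exceeded 1 FPKM, was at 0.58, 1.14 and 1.55 FPKM against 0.62, 0.67 and 0.34 FPKM, with overlap. The 4 relatives of ESAM (F11R, CXADR, JAM3 and VSIG2) had ratios of 0.803 to 1.43. SPP1, the one relative of ODAM at 1 FPKM or more, was at 173, 441 and 455 FPKM against 1154, 1210.4 and 521 FPKM.

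**Figure D4:**
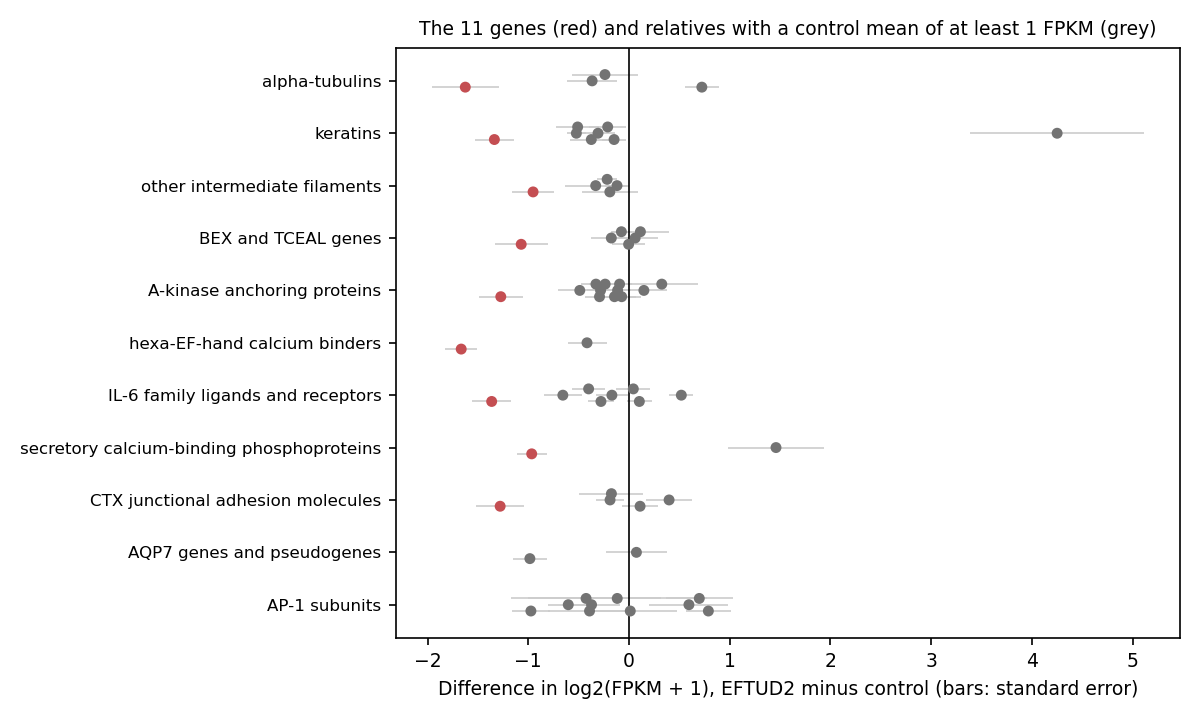
Difference in log2(FPKM + 1), EFTUD2 minus control (x), with its standard error, for members (red) and for other genes of the same family whose control mean reached 1 FPKM (grey); the last 2 groups hold no member. The protein-coding members lie between -1.67 and -0.95, and the 2 transcribed pseudogenes of the set are not drawn. Most relatives lie nearer to 0, but AQP7P5 (-0.98) and FOSL1 (-0.97) of the last 2 groups lie in that range. KRT17 lies far to the right, and SPP1 is at 1.46. Relatives under that control level are not drawn, among them VIM, KRT7 and IL6, whose EFTUD2 means were higher.

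In the AQP7 group, one of whose pseudogenes overlaps LOC100996643, AQP7P5 was at 3.82, 2.47 and 2.51 FPKM in controls against 0.95, 0.81 and 1.15 FPKM with EFTUD2, a ratio of 0.331. AQP7 itself overlapped between groups, at 1.61, 0.85 and 1.17 FPKM against 0.79, 0.85 and 2.69 FPKM.

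The genes for AP-1 subunits, whose loose pattern matched 3 of the windows, differed in direction. Of the 10 at 1 FPKM or more in the controls, 6 had a lower and 4 a higher mean. Of the 10, 2 were lower and 1 higher without overlap, near the 19.4% and 7.92% of all genes tested, whose floor was lower. FOSL1 was at 15.2, 18.5 and 12.1 FPKM against 7.43, 8.27 and 5.96 FPKM, while JUNB was at 20.3, 11.4 and 12.97 FPKM against 21.4, 29.0 and 27.2 FPKM. The part of these factors in the levels of SCGN, IL11 and ODAM was not tested.

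Genes beside the members on the chromosome were, as a group, not low with them. Within 200 kb of 8 members lay 51 genes whose mean reached 1 FPKM, and their median log2 difference was -0.05. Of these, 10 (19.6%) were lower without overlap, against 19.4% of all genes tested, whose floor was lower, and 3 were higher. UBE2S and RPL28, within 30 kb of IL11, had ratios of 1.09 and 1.17, but SBK3, 170.2 kb away, was at 3.78, 2.07 and 1.83 FPKM against 1.01, 0.86 and 0.89 FPKM. BCAN, the neighbour nearest to NES at this level, shared its high control replicate 1 and not its low EFTUD2 libraries, at 19.3, 8.24 and 8.34 FPKM against 8.90, 7.73 and 11.2 FPKM. Of the 12 neighbours of NES, 2 were lower without overlap. CRABP2, 22.2 kb away, was at 1.75, 1.19 and 2.15 FPKM against 1.05, 0.64 and 0.40 FPKM, and GPATCH4 had a ratio of 0.547. KRT17 lies 91.1 kb from KRT19. KRT15 and KRT14 lie nearer to KRT19, but their means were under 1 FPKM, so the 51 leave them out. KRT15 was lower without overlap, at 0.98, 0.95 and 1.13 FPKM against 0.46, 0.32 and 0.44 FPKM. KRT14 was higher without overlap, at 0, 0 and 0.01 FPKM against 0.29, 0.83 and 0.09 FPKM. MSANTD2 and VSIG2, the nearest genes on either side of ESAM, had ratios of 0.837 and 1.43.

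**Figure D5:**
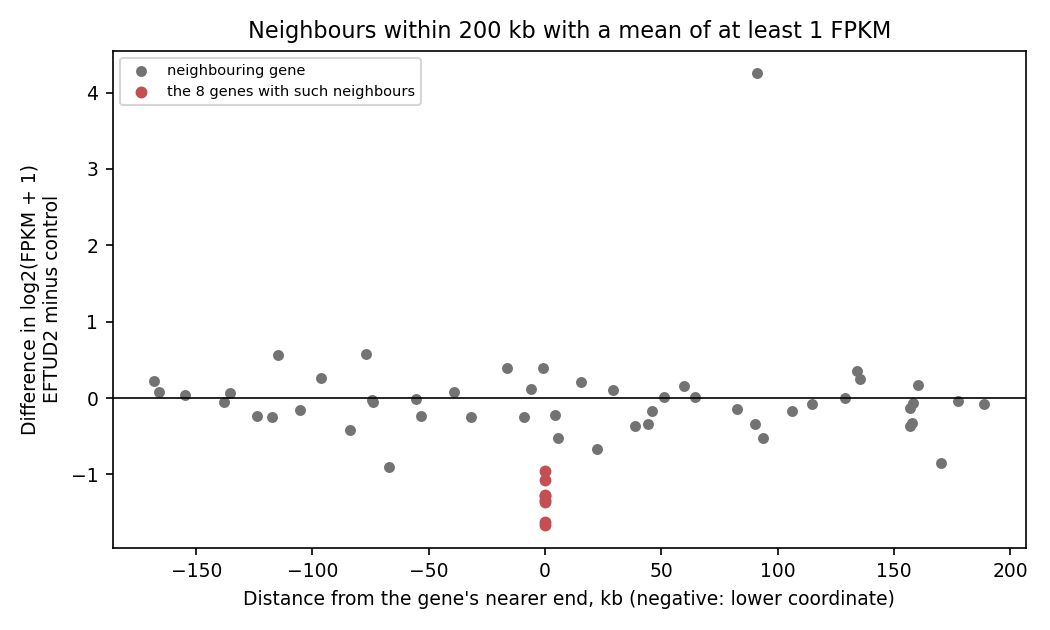
Distance in kb from the member (x) and difference in log2(FPKM + 1), EFTUD2 minus control (y), for 51 genes within 200 kb of 8 members (grey), with those members at 0 (red). The median of all 51 grey points is -0.05, with KRT17 at 4.25 as the one far above.

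Markers of other cell types were read beside these genes because KRT19 and ESAM are known from bile duct and vessel cells. The endothelial marker sum was 1.09 to 1.53 FPKM in the controls and 1.29 to 1.60 FPKM with EFTUD2, and 4 of its 5 genes were under 1 FPKM in every library, whereas ESAM was at 14.5 FPKM or more in the controls. Within that sum VWF and CDH5 were higher and PECAM1 lower without overlap, all at low levels. The list for bile duct and other epithelium, which includes KRT19 and KRT17, summed to 486 to 558 FPKM against 289 to 502 FPKM, with overlap and 1 of 6 genes at 0. KRT19 itself, which the selection used, made up most of that sum in the controls. EPCAM was at 86.7, 114.7 and 111.5 FPKM against 103.9, 93.1 and 95.1 FPKM, and SOX9 at 83.2, 52.5 and 71.1 FPKM against 67.5, 59.2 and 81.7 FPKM. Both overlapped between groups, with ratios of 0.934 and 1.01. KRT7, of the same list, was at 0.61, 0.95 and 1.34 FPKM against 24.7, 61.2 and 0.78 FPKM. It was thus far higher in EFTUD2 replicates 1 and 2 but not in replicate 3. The sum ran from 26.6 to 38.4 FPKM against 28.1 to 43.2 FPKM for fibroblast markers, with 1 of 7 at 0, and from 18.4 to 31.6 FPKM against 26.7 to 35.7 FPKM for macrophage markers, with 5 of 7 under 1 FPKM everywhere. ACTA2 made up most of the fibroblast sum and CD68 most of the macrophage sum, and both overlapped between groups. These sums hide COL3A1, at 0, 0 and 0 FPKM against 0.62, 1.49 and 0.14 FPKM, and CD14, at 0.86, 0.60 and 1.03 FPKM against 1.41, 2.06 and 2.51 FPKM. No other gene of these lists was separated. For lymphocyte markers the sum was 2.53 to 3.56 FPKM against 2.09 to 2.61 FPKM, with 3 of 4 in the table and 1 at 0. Of these lists, only that for hepatocytes had every marker at 1 FPKM or more in the controls.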

How the data were processed

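RNA was analysed for 3 control and 3 EFTUD2-overexpressing Hep G2 libraries, grouped by the GEO labels. The authors extracted RNA with TRIzol and sequenced it on a BGI platform; the deposited values are FPKM per gene with 2 decimals. The submitters' processing notes name HISAT2, Bowtie2, RSEM, DESeq2 and the build hg38, without versions. No counts were used, depth is unknown, and 0 columns of other samples were present. Of 18762 Entrez numbers, 18449 matched RefSeq (GRCh38.p14), which gave symbols, positions and promoter windows.

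The 11 genes were chosen by the rule given in the text, which uses the same FPKM values. The genes named were the members with the largest gap, those with the highest control mean, members of each list, the 3 genes nearest the limit on each side, and EFTUD2; relatives, neighbours and motifs shown were chosen after their values were seen. The members and lists were chosen with earlier results of these data known. Levels are means ± SD over 3 libraries. All genes whose mean reached 0.1 FPKM were compared with limma 3.58.1 (trend, R 4.3.3) on log2(FPKM + 1), two-sided, at a Benjamini-Hochberg adjusted p under 0.05; this understates the change of low genes. The fit was tested on simulated data. Alternatives were other pseudocounts, filters, scalings and limits, a replicate block, and each library left out. Python 3.11.15, pandas 2.3.3 and matplotlib 3.10.9 were used. Whether same-numbered libraries pair was checked by the correlation of their deviations from the group means, which is given with the alternatives.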

Additional observations from a re-analysis of the deposited data

How the results depend on the processing

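The direction of the 15 genes named by rule held in all 180 alternative fits. For the members and the genes just outside the limit, this was largely fixed by the separated values they were picked on, so it is no support. In size, 171 of the fits moved by less than the spread between replicates and 9 by more, mostly low genes with a smaller pseudocount. The median log2 difference of the 11 stayed between -1.46 and -1.08. The set itself depended on its limits: 11 genes became 89 at a ratio limit nearer to 1, 4 at a ratio of 2 and 30 at a control mean of 1 FPKM. Scaling by the median of ratios left 7, without BEX1, LOC105379443, NES and ODAM. LOC105379443, with a control mean of 5.22 FPKM near the floor of 5, kept a log2 difference of -1.41 there, against -1.49. Quantile scaling left 9, without BEX1 and NES, and a common FPKM sum gave 15, which included all 11. Leaving out a library gave 15 to 23 genes: 19 without control replicate 1, 15 without control replicate 2, 23 without control replicate 3, 23 without EFTUD2 replicate 1, 17 without EFTUD2 replicate 2 and 23 without EFTUD2 replicate 3. With fewer libraries the limit is easier to meet, so the members are kept by construction, except LOC105379443, whose control mean was under 5 FPKM without control replicate 1.

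Over all genes, limma called 0 lower and 0 higher genes in every alternative except without EFTUD2 replicate 3, where it called 14 lower and 153 higher; leaving out libraries thus gave 0 to 14 lower and 0 to 153 higher calls. The split without adjustment turned with scaling, from 1361 lower and 757 higher to 848 and 1122 under the median of ratios, where the median log2 difference of all genes was 0.00 in place of -0.07. With the replicate block the calls stayed at 0 and 0. The median of the 11 stayed at -1.28, which a block of same-numbered libraries cannot change. The correlations of same-numbered libraries were -0.30, 0.35 and -0.09. With 3 libraries per group and EFTUD2 replicate 3 apart from the others, they cannot settle whether same-numbered libraries pair. Unknown depth limits the low genes most.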

Other observations

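Of the 284 rows for transcripts the sequencing provider had assembled, with no Entrez number and a control mean of at least 5 FPKM, 4 met the same limits. They carry no gene name and were not described.

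Several immediate early genes of the AP-1 group were high in control replicate 1 and in EFTUD2 replicate 3 alike, a pattern seen after their values were known. JUN was at 72.4, 26.8 and 25.3 FPKM in controls against 14.6, 14.8 and 89.0 FPKM with EFTUD2. ATF3 was at 25.4, 5.60 and 5.54 FPKM against 3.72, 4.36 and 34.3 FPKM, and FOSB at 2.42, 0.59 and 0.68 FPKM against 0.27, 0.18 and 1.70 FPKM.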
